A study of Drosophila melanogaster with 15 samples.

Results

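Messenger RNA of SL2 cells after CLAMP RNAi was compared with that after control RNAi across all chromosomes. SL2 is a male Drosophila melanogaster cell line that resembles hemocytes, the fly's blood cells. Both cultures had been kept for 6 days of RNAi at 25 °C, per the labels, and the deposited control file is named for GFP RNAi. There was 1 library on each side, and the library from SL2 cells after MSL2 RNAi is given beside them as a level. The other 12 of the 15 samples, chromatin immunoprecipitation and input DNA, were not analysed here. No transgene or deletion is named in the labels for any of the 3 libraries.

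The deposited files list 22353 transcripts of 15139 genes. A single transcript, the one with the most reads averaged over the 3 libraries, stood for each gene. Genes whose mean RPKM (reads per kilobase of transcript, scaled to the library total) was at least 1 over the 3 libraries were described, 7485 of the 15139. The values nearest that limit were a mean RPKM of 0.997 for GABA-B-R2, left out, and of 1.00 for CG41520, kept. Library totals were 68036170 (control), 68301197 (CLAMP RNAi) and 67844405 (MSL2 RNAi). Log2 ratios are of RPKM plus 0.1 in CLAMP RNAi over control. The added 0.1 makes ratios of low genes smaller than those of their reads. Read ratios are reads scaled by library totals, with an exact 95% Clopper-Pearson interval that covers counting error only, since PCR copies and mates are not independent molecules. No difference has a replicate check and no test across cultures was possible, so "lower" and "higher" describe these libraries.

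CLAMP is a zinc finger protein that binds GA-rich DNA at many sites on every chromosome and helps to bring the male-specific lethal (MSL) complex to the male X. The MSL complex, of which MSL2 is a subunit, raises transcription of X-linked genes in males. RNA interference lowers the transcript that matches the added double-stranded RNA, and genes that respond can do so directly or through other genes.

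The targeted gene was lower in its own library. On arm 2L, Clamp (CG1832) stood at an RPKM of 66.2 (control), 19.8 (CLAMP RNAi) and 66.9 (MSL2 RNAi). The read ratio to control was 0.299 (0.288 to 0.311). The libraries do not measure the protein.

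Of 18 hemocyte marker genes in the files, 15 passed the level filter, and the summed RPKM of all 18 was 5276 (control), 7518 (CLAMP RNAi) and 6008 (MSL2 RNAi). Most of that sum came from the matrix genes SPARC, Pxn, Col4a1 and vkg, which together held 4480, 6707 and 5258. The other 14 markers summed to 796, 811 and 749. Among those 14, the GATA factor gene srp stood at an RPKM of 83.3, 91.7 and 87.2, the scavenger receptor genes Sr-CI and crq at 168, 151 and 139.8 and at 101.6, 95.7 and 84.6, and the Hemese gene He at 40.6, 22.1 and 26.6. Sr-CI, crq and He were the only 3 of the 15 markers past the filter with a log2 ratio below 0. Of all genes 62.7% were below 0. The median of the 15 was 0.14, and among the 14 Hml stood at 1.005 and Ppn at 0.54. Markers of each other cell type summed to far less than the sum of those 14 in all 3 libraries. The 12 neuron markers summed to 14.6, 13.9 and 14.8, and 3 of the 12 passed the filter. The 12 muscle markers summed to 101, 66.4 and 85.7, of which Tm1, also a cytoskeletal gene, made up 88.8, 54.4 and 75.2, and TpnC73F was at 0. The 10 epithelial markers summed to 177, 156 and 170, the 11 germline markers to 150, 118 and 145, the 8 glial markers to 103.9, 81.4 and 88.2, and the 10 fat body markers to 9.41, 7.23 and 7.79. In bulk RNA, fewer cells of a type and less RNA per cell cannot be told apart, and the part of these shifts in the results below was not tested.

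Most genes had nearly the same level in both libraries. The median log2 ratio was −0.06, the middle 50% of genes lay between −0.19 and 0.06, and 77.8% were within 1.2-fold of control. At least 2-fold lower were 87 genes, 1.16% of those described, and at least 2-fold higher were 44, or 0.588%. At 1.5-fold there were 289 lower genes (3.86%) and 112 higher (1.5%). A 4-fold rule left 12 lower and 9 higher. The values nearest to the 2-fold limits were those of GNBP3 (−1.01, inside) and Myo28B1 (−0.995, outside) among lower genes, and of Hml (1.005, inside) and CDase (0.99, outside) among higher ones.

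**Figure D1:**
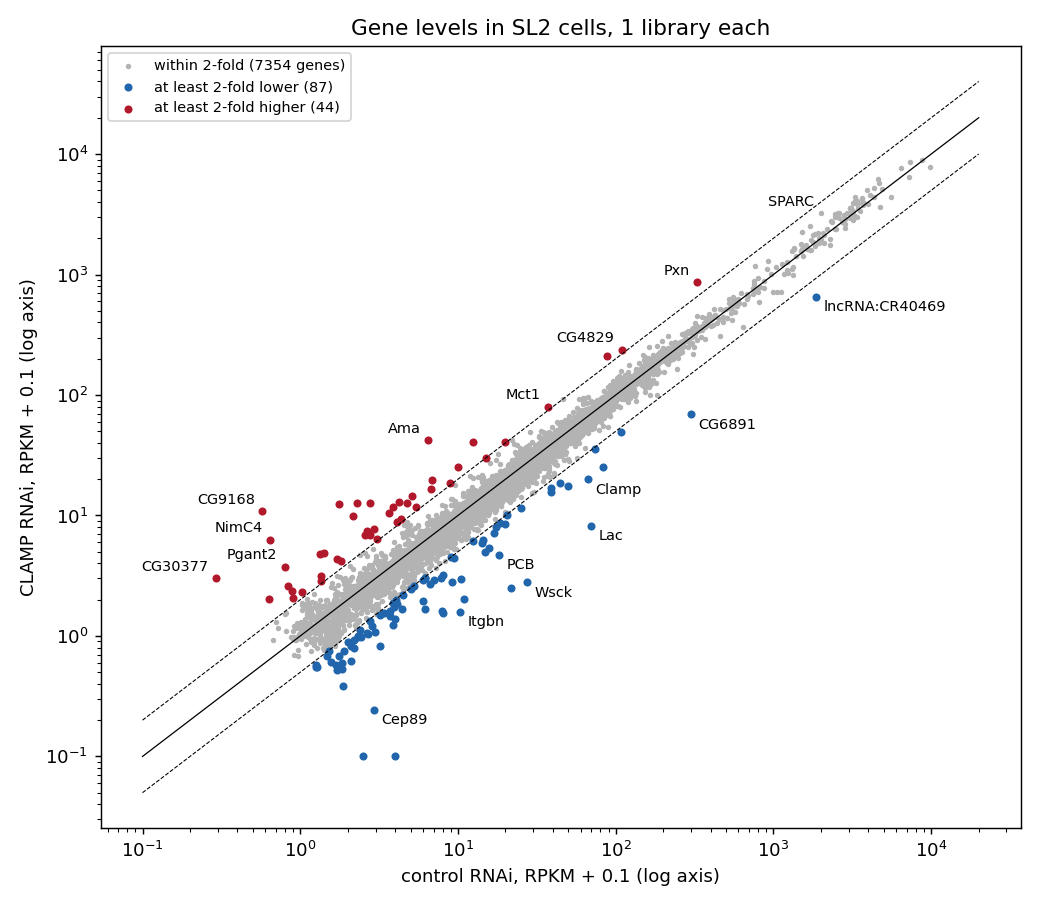
RPKM plus 0.1 of 7485 genes in control RNAi (x) and CLAMP RNAi (y), both on log axes, with 1 library each. Solid line, equal levels; dashed lines, 2-fold. The 87 blue points lie at least 2-fold lower and the 44 red points at least 2-fold higher, and most of both have low RPKM.

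The 2-fold genes were mostly genes of low level. Of 1048 genes with a mean RPKM of 1 to 5, 5.25% were 2-fold lower and 2.19% higher. At 20 to 100 the shares were 0.282% and 0.125% of 3191 genes. The 87 lower genes comprised 65 protein-coding and 22 noncoding genes, and 21 of the 87 had under 50 reads in both libraries. Of the 7485 described genes 7259 were protein-coding. Of the 22, 16 were among the 68 described small nucleolar and Cajal body RNA genes, which had a median of 20 control reads. The 44 higher genes comprised 40 protein-coding genes, 3 noncoding genes and 1 without an annotation. The 3 noncoding genes were among the same 68. The counting interval of the read ratio lay clear of 1 for 78 of the 87 and for 43 of the 44. These genes were chosen by the size of their ratio, so such counts largely follow from the choice and from read numbers.

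Genes for cell-surface proteins were among those furthest below control. Wsck encodes a receptor tyrosine kinase, and its RPKM was 27.3 (control), 2.68 (CLAMP RNAi) and 29.9 (MSL2 RNAi), a read ratio to control of 0.0983 (0.0897 to 0.107). Lac encodes Lachesin, an immunoglobulin-family protein of septate junctions, the barrier junctions of insect epithelia. Its RPKM was 69.8, 8.14 and 74.7 in the same order, a read ratio of 0.117 (0.110 to 0.124). Itgbn encodes the integrin subunit βν, a receptor for the engulfment of dying cells, and stood at 10.2, 1.48 and 8.45, a read ratio of 0.145 (0.129 to 0.162). In each of these genes the CLAMP RNAi library was the low one and the other two were close together. Kal1, the fly counterpart of the human gene for the extracellular protein anosmin, had an RPKM of 15.5, 5.26 and 15.5.

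Genes for metabolic and lysosomal enzymes were also among the lowest. PCB, which encodes pyruvate carboxylase, the enzyme that makes oxaloacetate from pyruvate, had an RPKM of 18.2 (control), 4.61 (CLAMP RNAi) and 6.93 (MSL2 RNAi). Here both knockdown libraries lay below control. GILT3, a lysosomal thiol reductase gene, stood at 10.3, 2.89 and 8.63 (read ratio 0.281, 0.233 to 0.336). Ugt37D1, a gene for a UDP-glycosyltransferase, which attaches sugars to small lipophilic compounds, had an RPKM of 14.8, 4.91 and 7.43. Its MSL2 RNAi value lay between the others.

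Several of the lowest genes are named by number alone in the annotation or have no role stated here. CG6891, on the X, had the largest drop in RPKM of any gene at 4-fold, from 299 in control to 69.2 after CLAMP RNAi, beside 250 after MSL2 RNAi. CG15347 (82.5, 25.4 and 52.3) and CG11655 (49.9, 17.5 and 39.9) are X-linked too. Erasp on arm 2R had an RPKM of 21.7, 2.42 and 20.3, a read ratio of 0.111 (0.0939 to 0.131). CG4793 stood at 44.5, 18.5 and 38.9, GrlHz at 14.2, 5.86 and 11.4, CG6357 at 7.73, 2.90 and 7.83 and CG10939 at 7.94, 3.13 and 10.9. In these the CLAMP RNAi library held the lowest of the 3 values. The noncoding lncRNA:CR40469 had 30847 (control), 10827 (CLAMP RNAi) and 9189 (MSL2 RNAi) reads, and the 46-base CR33789 had 122, 49 and 41 reads. Both knockdown libraries were low for these short RNAs.

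At a mean RPKM of 1 to 5, Cep89, a centrosomal protein gene, had 296 (control), 15 (CLAMP RNAi) and 396 (MSL2 RNAi) reads, a read ratio of 0.0505 (0.0279 to 0.0846). CG10026 had 828, 151 and 544 reads. The microRNA CR32981 had 5, 0 and 6 reads, scaRNA:MeU2-C28 had 8, 0 and 10, and the microRNA CR32966 had 17, 3 and 3. A count of 0 allows up to 3 reads, so no fold is given for CR32981 and scaRNA:MeU2-C28.

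**Figure D2:**
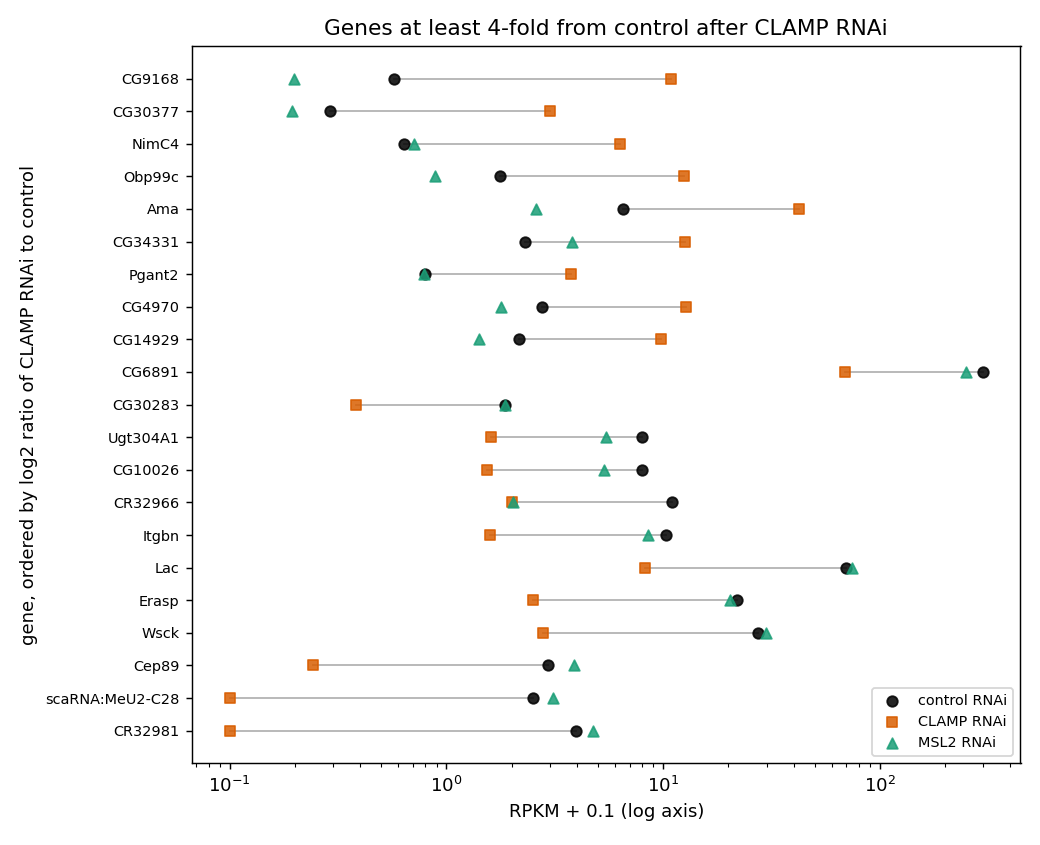
RPKM plus 0.1 (log axis) in the 3 libraries for the 21 genes at least 4-fold from control after CLAMP RNAi, with grey lines from control to CLAMP RNAi. MSL2 RNAi lies near control for Wsck, Lac and Cep89 and with CLAMP RNAi for CR32966. The 2 lowest genes, with 0 reads after CLAMP RNAi, had 5 and 8 reads in control.

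The genes furthest above control had few reads there. Of those named next, CG9168, CG30377, NimC4 and Pgant2 were below an RPKM of 1 in both other libraries and passed the level filter through the CLAMP RNAi library alone, so low values elsewhere are partly set by the filter. CG9168, on arm 3L, had 58 (control), 1325 (CLAMP RNAi) and 12 (MSL2 RNAi) reads, a read ratio of 22.8 (17.5 to 30.1) and an RPKM of 10.8 after CLAMP RNAi. CG30377 had 41, 627 and 20 reads, a ratio of 15.2 (11.1 to 21.4). NimC4 encodes a Nimrod receptor by which macrophages and glia bind dying cells. It had 47, 542 and 53 reads, a ratio of 11.5 (8.52 to 15.8). Obp99c, of the odorant-binding protein family, had 66, 488 and 31 reads, and Pgant2, for an enzyme that starts mucin-type O-glycosylation, had 158, 835 and 155.

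At a mean RPKM of 5 or more, Ama had the highest ratio. It encodes Amalgam, a secreted immunoglobulin-family protein and ligand of the adhesion protein Neurotactin. It had 670 (control), 4432 (CLAMP RNAi) and 261 (MSL2 RNAi) reads, a read ratio of 6.59 (6.07 to 7.16). CG34331 stood at 2.19, 12.6 and 3.68, CG4970 at 2.67, 12.6 and 1.69, and CG34232 at 12.4, 40.5 and 8.52. CR34660, a transcript of 128 bases without a match in the annotation, had 31, 90 and 44 reads. CG30089 had an RPKM of 9.94, 25.4 and 10.3, and CG4829 109, 238 and 63.8. CLAMP RNAi held the highest value in all of these, which were chosen for a high ratio to control. CG34331 and CG4970, like Gbp1, teq, ClC-a and Gs1 below, were under an RPKM of 5 in both other libraries. They passed that bound through the CLAMP RNAi library alone, so low values elsewhere are partly set by the bound.

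Some of the higher genes encode secreted and matrix proteins. Pxn encodes peroxidasin, which crosslinks collagen IV in basement membranes, and its RPKM was 326 (control), 860 (CLAMP RNAi) and 564 (MSL2 RNAi). Both knockdown libraries were above control. The fat-spondin gene stood at 87.7, 212 and 72.2, above the others after CLAMP RNAi alone. Gbp1 encodes a growth-blocking peptide, a cytokine of the fly, and had an RPKM of 4.16, 12.9 and 2.59. The protease gene teq (Tequila) had 2693, 7427 and 1162 reads, and the alkaline phosphatase gene Alp4 625, 1367 and 742.

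Genes for transport and nitrogen metabolism followed. The chloride channel gene ClC-a had 1027 (control), 3171 (CLAMP RNAi) and 244 (MSL2 RNAi) reads, and the monocarboxylate transporter gene Mct1 7485, 16154 and 3689. For these the control lay between the knockdown libraries. Gs1, for a glutamine synthetase, had 820, 2360 and 553 reads (ratio 2.87, 2.65 to 3.11). The arginase gene arg had 576, 1429 and 371. Cyp9c1, a cytochrome P450 gene, had 796, 2332 and 741. CG34305, a transcript of 300 bases on arm 3R, had 108, 241 and 65.

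Functional groups were described with 30 gene lists, whose members were chosen with earlier results of these data known. They held 699 different described genes, of which 15 (2.15%) were 2-fold lower and 11 (1.57%) 2-fold higher, beside the background shares of 1.16% and 0.588%. At 1.5-fold 30 (4.29%) were lower and 14 (2.00%) higher, beside 3.86% and 1.5%. The median over the 699 was −0.05, beside −0.06 over all genes. In 9 lists no member was 1.5-fold from control, and in each of the others 1 to 4 members were.

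**Figure D3:**
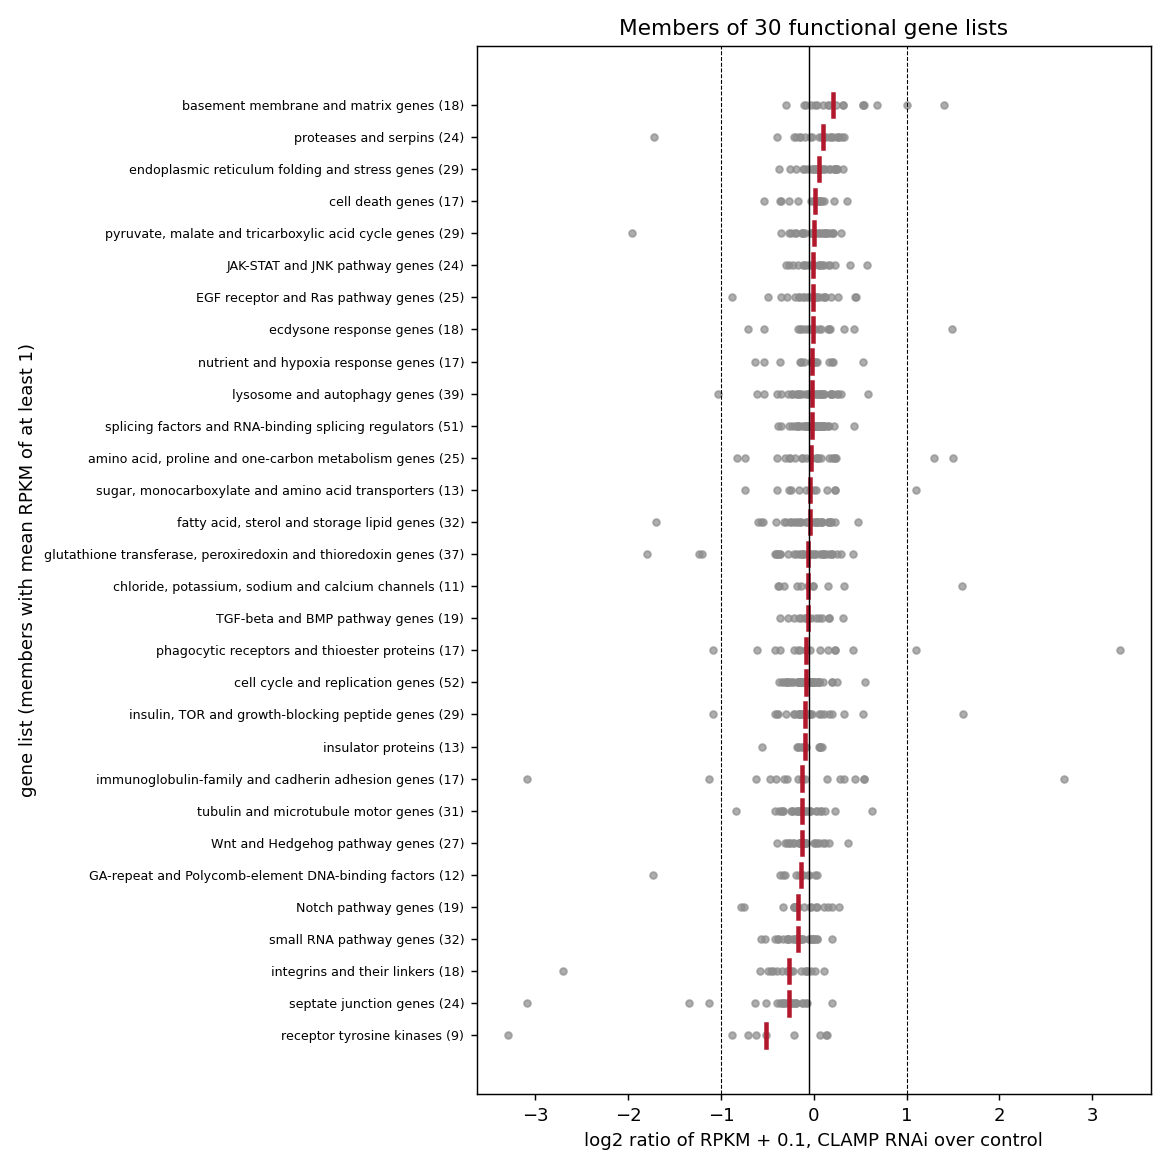
Log2 ratios of RPKM plus 0.1, CLAMP RNAi over control (x), of the members of 30 gene lists (rows, with the number described). Grey points, genes; red bars, list medians; solid line, median of all 7485 genes; dashed lines, 2-fold. List medians run from −0.52 for receptor tyrosine kinases to 0.20 for matrix genes, and single members such as Lac, Itgbn, Ama and NimC4 lie far from their lists.

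Septate junction genes were mostly below control. Of 24 members 23 had a log2 ratio below 0, beside 62.7% of all genes, and the median was −0.27, beside −0.06. The 2-fold lower members were Lac, bou, for a small Ly6-family protein (174, 66 and 170 reads), and Nrg, for the adhesion protein Neuroglian (7535, 3444 and 2799 reads). Ssk, the snakeskin gene of gut septate junctions, stood at −0.63 on 159 and 101 reads. The member above 0 was Atpalpha, the sodium pump subunit gene, at 0.20. The epithelial markers also had 9 of 9 members below 0, and 4 genes, Nrx-IV, Ssk, cora and sinu, belong to both lists. For MSL2 RNAi over control the septate junction median was −0.17. Their part in the list's median was not tested.

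Of 18 integrins and linkers, 16 were below control, beside 62.7% of all genes, with a median of −0.26. Their median for MSL2 RNAi over control was −0.26 as well. Itgbn alone was past 1.5-fold. Next were scb, for an integrin α subunit (4584, 3062 and 1768 reads, −0.58), the kinase gene Src64B (−0.49) and the tensin gene by (−0.46). The α subunit gene mew stood at −0.44. The other β subunit gene, mys, stood at −0.09, and the talin gene rhea at −0.34.

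Receptor tyrosine kinases had the lowest list median, −0.52, over 9 members, of which 6 were below 0, beside 62.7% of all genes. The middle member was Eph, a chromosome 4 gene that stood at −0.50 after MSL2 RNAi. For MSL2 RNAi over control the list median was 0.00. Wsck and 3 others were 1.5-fold lower after CLAMP RNAi, beside 3.86% of all genes. Egfr, the epidermal growth factor receptor gene, had 414 (control), 212 (CLAMP RNAi) and 414 (MSL2 RNAi) reads. Ror had 249, 147 and 188, and Cad96Ca 246, 154 and 568. These 3 counts are low. The abundant Pvr, for the PDGF and VEGF receptor of hemocytes, stood at 0.13, and the insulin receptor gene InR at −0.21. In the wider list of the EGF receptor and Ras pathway, Egfr was the single member of 25 past 1.5-fold, and the median was −0.01.

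Immunoglobulin-family and cadherin genes went in both directions. Of 48 in the files 17 passed the level filter, with a median of −0.13. Of the 17, 10 were below 0, near the 62.7% of all genes. Lac, Nrg and Cad96Ca were 1.5-fold lower and Ama higher, beside 3.86% and 1.5% of all genes.

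Basement membrane and matrix genes had the highest list median, 0.20, with 4 of 18 members below 0, beside 62.7% of all genes. Pxn and Hml, for the clotting factor hemolectin (11944, 24140 and 23163 reads), were 2-fold higher, and SPARC 1.5-fold higher with a read ratio of 1.61 (1.60 to 1.62). Of all genes 0.588% were 2-fold higher and 1.5% at least 1.5-fold higher. The prolyl hydroxylase gene PH4alphaEFB and the metalloproteinase gene Mmp1 stood at 0.53, and the collagen IV genes Col4a1 and vkg at 0.31 and 0.24. LanA, a laminin gene, stood at −0.10. Hml and Pxn were also high after MSL2 RNAi, whereas SPARC had a log2 ratio of 0.09 there. Of the list, 7 genes are among the hemocyte markers, whose summed level was higher after CLAMP RNAi as given above.

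Engulfment receptors and thioester proteins lay on both sides of control, with a median of −0.08 over 17 members. NimC4 was higher and NimC3 lower, at 934, 437 and 436 reads. Tep4, an abundant thioester protein gene of hemocytes, had 42247, 27737 and 49214 reads. The scavenger receptor gene ninaD had 146, 327 and 682 reads, so that MSL2 RNAi was the highest. In the Nimrod family as a whole, chosen after its values were seen, 8 of 10 genes passed the filter. NimB3 had 33, 121 and 28 reads and the other 5 lay between −0.42 and 0.23.

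In metabolism, list medians lay near that of all genes, and each list had 1 or more members past 1.5-fold. The pyruvate, malate and tricarboxylic acid cycle list had a median of 0.01 over 29 members, and PCB was the sole member past 1.5-fold. Amino acid genes had a median of −0.03 over 25, with 2 members 1.5-fold lower and 2 higher, beside 3.86% and 1.5% of all genes. Besides Gs1 and arg, slgA, for proline oxidase, was lower (3426, 1927 and 1664 reads), as was Gs2, for the other glutamine synthetase (4330, 2590 and 3149 reads). The glutamine synthetase genes therefore lay on opposite sides of control, at 1.501 for Gs1 and −0.74 for Gs2. Among 32 lipid genes (median −0.04), bgm, for an acyl-CoA synthetase of very long chain fatty acids, had 1548, 466 and 366 reads, and ACC, for acetyl-CoA carboxylase, had 43856, 29041 and 37216.

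Redox genes had a median of −0.06 over 37, with 3 members 2-fold lower, beside 1.16% of all genes. They were GILT3, Prx6c (1172, 496 and 429 reads) and Prx6b (2235, 970 and 950). Prx6b and Prx6c are close copies, so their reads may have been divided by the counting. Of the sugar, monocarboxylate and amino acid transporters, Mct1 was higher and CG13248, an amino acid transporter gene, lower at 350, 203 and 371 reads, with a median of −0.04 over 13. ClC-a was alone among 11 ion channel genes (median −0.06). Of 39 lysosome and autophagy genes (median −0.02), LManII, for a lysosomal mannosidase, was 2-fold lower (4885, 2394 and 3993 reads). Atg12 had 221, 144 and 118 reads, and Npc2b, for a sterol-binding protein, 178, 271 and 225.

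Lists of signalling, cytoskeletal and protease genes had medians from −0.16 to 0.10, beside −0.06 over all genes. Insulin, TOR and growth-blocking peptide genes had a median of −0.10 over 29, with the insulin-like peptide gene Ilp6 lower (1283, 601 and 1114 reads) and Gbp1 higher. In the Notch list (median −0.16 over 19), numb, for an inhibitor of Notch, had 1381, 811 and 1762 reads and pen-2, a γ-secretase subunit gene, 145, 83 and 69. Of 18 ecdysone response genes (median −0.01), Cyp18a1, whose enzyme inactivates ecdysone, had 480, 1387 and 541 reads, and the transcription factor gene br 1974, 1202 and 1774. The receptor gene EcR stood at −0.17. Of 17 nutrient and hypoxia genes (median −0.01), Atf3 alone was past 1.5-fold, at 839, 527 and 434 reads. In the tubulin and motor list (median −0.13 over 31), betaTub97EF was lower (5182, 2898 and 3891 reads) and betaTub60D higher (10576, 16368 and 10651). Of 24 proteases and serpins (median 0.10), Spn42Dd was 2-fold lower, on 161 and 42 reads.

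No member passed 1.5-fold in the lists of insulator proteins (13 genes), endoplasmic reticulum folding (29), Wnt and Hedgehog (27), TGF-β and BMP (19), JAK-STAT and JNK (24), splicing (51), small RNAs (32), the cell cycle (52) and cell death (17). Their medians lay between −0.17 for small RNA genes and 0.05 for folding genes. The members furthest from control were, in the same order, Ibf1 (−0.56), Atf6 (−0.37), pan (−0.39), Dad (−0.36), the TNF receptor gene wgn (0.57), the splicing regulator gene hfp (0.44), AGO3 (−0.56), the mitotic phosphatase gene stg (0.56) and the cell death gene rpr (−0.54). Of the 12 DNA-binding factors of GA repeats and Polycomb elements Clamp itself was past 1.5-fold. Trl, for the GAGA factor, which binds sequences like those of CLAMP, stood at −0.16 and psq, for another GA-binding protein, at −0.31.

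Other genes past 2-fold, chosen after their values were seen, covered several further roles. Tfb1, for a subunit of the general transcription factor TFIIH, had 10836, 5237 and 11921 reads, and EndoU, for an endoribonuclease, 1829, 776 and 1741. LpR2, a lipophorin receptor gene, had 1265, 556 and 775. Drep1 and Drep2, of the DNA fragmentation factor family, had 326, 131 and 352 reads and 412, 171 and 594. The CLAMP RNAi library was the lowest of the 3 for each of these. CG42457 and CG31243 had identical counts of 2541, 1219 and 2346, so their reads cannot be told apart.

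Pigment and immune genes also appeared on both sides. The ebony gene e, whose enzyme joins β-alanine to dopamine, had 605, 1629 and 525 reads, and speck, for an arylalkylamine N-acetyltransferase, 323, 96 and 193. Mtk, which encodes the antimicrobial peptide metchnikowin, had 49, 125 and 29 reads. Among 8 peptidoglycan recognition genes PGRP-LB was 2-fold lower (153, 56 and 80 reads) and PGRP-LE 1.5-fold lower (132, 73 and 110), while PGRP-SD had 27, 56 and 51. The abundant PGRP-SA stood at 0.13. GNBP3, for a sensor of fungal glucans, had 1239, 613 and 1557 reads, and the related GNBP1 and GNBP2 stood at −0.07 and −0.12.

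Detoxification families, grouped by symbol after their values were seen, held several of the low-level genes. Of 35 Ugt genes 9 passed the filter, and 3 were 2-fold lower, beside 1.16% of all genes, namely Ugt37D1, Ugt304A1 (850, 163 and 575 reads) and Ugt302K1 (622, 300 and 863). The Ugt median was −0.39 for CLAMP RNAi over control and 0.06 for MSL2 RNAi over control. Of 33 cytochrome P450 genes, Cyp6d2 (279, 105 and 276 reads) and Cyp12a5 (893, 359 and 649) were 2-fold lower and Cyp9c1 and Cyp18a1 2-fold higher, beside 1.16% and 0.588% of all genes, with a median of −0.11. The 24 glutathione transferase genes had a median of −0.13 and 1 past 1.5-fold, GstD7, at 90, 170 and 58 reads.

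Different transcripts of a gene seldom had unlike ratios. Of 2431 genes with at least 2 transcripts of 100 reads or more and distinct counts, 2, or 0.0823%, had transcripts whose log2 ratios differed by 1.5-fold. The median difference was 0.01 and the 95th percentile 0.16. Reads in shared exons were counted for each transcript, which draws the ratios of a gene's transcripts together. Tm1, a tropomyosin gene with 10 such transcripts, differed the most. Transcript RB had 2210 (control), 1333 (CLAMP RNAi) and 1814 (MSL2 RNAi) reads (−0.73), whereas RH had 4750, 5847 and 4342 (0.29). In CG6340, transcript RA had 704, 754 and 429 reads and RB 1449, 2621 and 2076, a difference of 0.75 on the log2 scale.

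The next 6 genes differed by 0.45 to 0.53 on the log2 scale. In Dark, the gene of the apoptosome protein, the short transcript RA had 983, 590 and 753 reads and the long RB 4021, 3345 and 4252. In CG33715, the 2612-base RF (1449, 811 and 594 reads) and the 37381-base RD (56790, 46260 and 31633 reads) were both lower. In tou, a chromatin remodelling gene, RE stood at −0.25 and RD at 0.20. In the noncoding lncRNA:CR42491, RA stood at −0.07 and RB at 0.46, in CG32306 RD at −0.01 and RC at 0.48, and in Kaz1-ORFB RG at −0.28 and RA, on 152 and 182 reads, at 0.25. The counting intervals of the 2 transcripts were apart in all 8 genes. Genes and transcripts were picked here for the largest difference, so this separation is partly set by the choice. The 2 counts of a gene are also not independent where exons are shared.

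**Figure D4:**
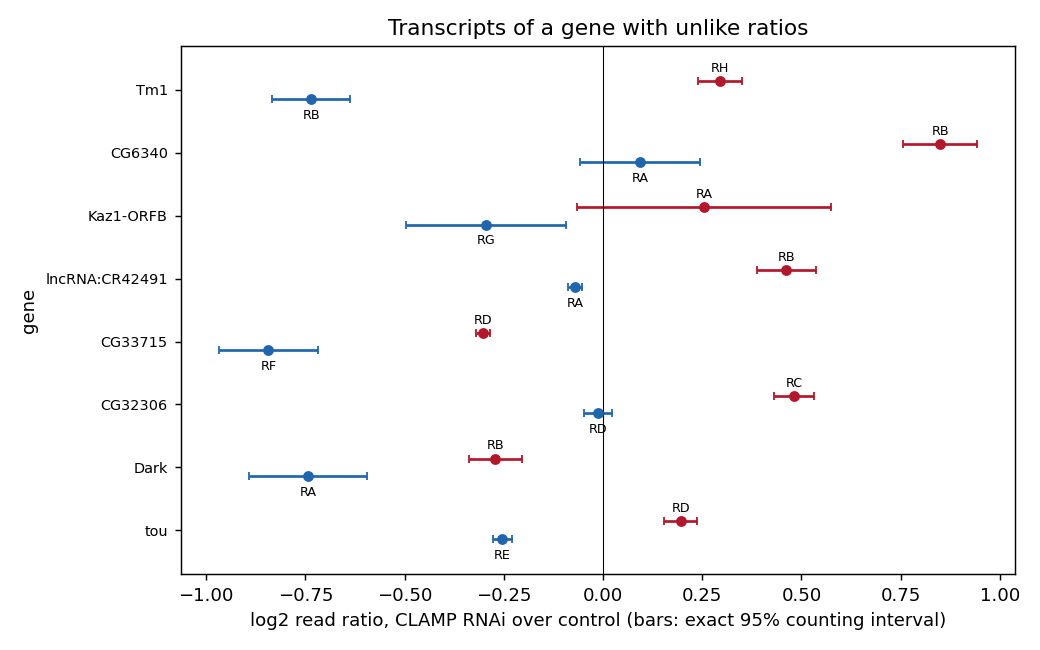
Log2 read ratio, CLAMP RNAi over control (x), of the transcripts with the lowest (blue) and highest (red) ratio in the 8 genes whose transcripts differed the most. Points are labelled by transcript, and bars are exact 95% counting intervals. Tm1 transcripts RB and RH lie on opposite sides of 0.

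Neighbouring genes were at times past the limit together. Along the order of the Release 6 annotation there were 7168 pairs of consecutive described genes, of which 27 were both 1.5-fold lower, 6 both 1.5-fold higher and 9 on opposite sides. Of all single genes 3.86% were 1.5-fold lower and 1.5% higher. How many such pairs unrelated genes would give was not computed, so no excess is read from these counts. Of the 27, 7 had gene models that overlap, 2 of them with identical counts, and 7 were pairs of small nucleolar RNA genes. Cep89 and Erasp on arm 2R were neighbours at −3.59 and −3.12, with models that do not overlap. CG4970 and CG14929 on arm 2L stood at 2.20 and 2.18, where CG14929 had 356 (control), 1683 (CLAMP RNAi) and 227 (MSL2 RNAi) reads. CG4970 had 393, 1864 and 248, nearly in proportion. Their models do not overlap in the annotation, but whether the deposited transcripts share reads was not tested. The longest run was on arm 3R, where CG14642 (1.06), CG34305 (1.14), TwdlG (1.204), a cuticle protein gene, and CG14644 (0.80) followed each other among described genes. Spn42Dc and Spn42Dd (−1.39 and −1.72) overlap in the annotation but have distinct counts, and bgm and NimC3 on arm 2L were neighbours at −1.70 and −1.08. NimC3 is followed among described genes by NimC4, which lay on the other side of control at 3.30. These genes were chosen after their values were seen.

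By chromosome, the 2-fold genes were spread over the arms. The share of genes 2-fold lower was 1.08% on the X (exact 95% interval 0.594 to 1.81), 1.44% on 2L (0.867 to 2.24), 1.52% on 2R (0.966 to 2.27), 0.776% on 3L (0.388 to 1.38) and 1.10% on 3R (0.676 to 1.70). For 2-fold higher genes the shares ran from 0.353% on 3L to 0.793% on 2R, with 0.464% on the X. These intervals overlap, and they cover counting of genes only. The median log2 ratio of the 5 arms lay between −0.06 and −0.05. Chromosome 4 had a median of −0.34 over 57 genes, of which 54 were below 0, beside 62.7% of all genes. Of the 57, 3 were 1.5-fold lower and 0 were 2-fold lower, beside 3.86% and 1.16% of all genes. For MSL2 RNAi over the same control library the chromosome 4 median was also −0.34, with 53 of the 57 below 0. Of all genes 53.4% were below 0 for MSL2 RNAi, with a median of −0.02. The lowest chromosome 4 genes after CLAMP RNAi were CG32017 (2721, 1576 and 1652 reads) and the ubiquitin ligase gene Rnf11 (786, 508 and 492). Next was unc-13, for a synaptic vesicle priming protein (11414, 7514 and 10133). The MSL2 RNAi library was about as low for CG32017 and Rnf11, and likewise for Ephrin (−0.54 and −0.54), Eph (−0.52 and −0.50) and eIF4G1 (−0.34 and −0.34), where the first log2 ratio is that of CLAMP RNAi and the second that of MSL2 RNAi. Both comparisons share the control library.

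**Figure D5:**
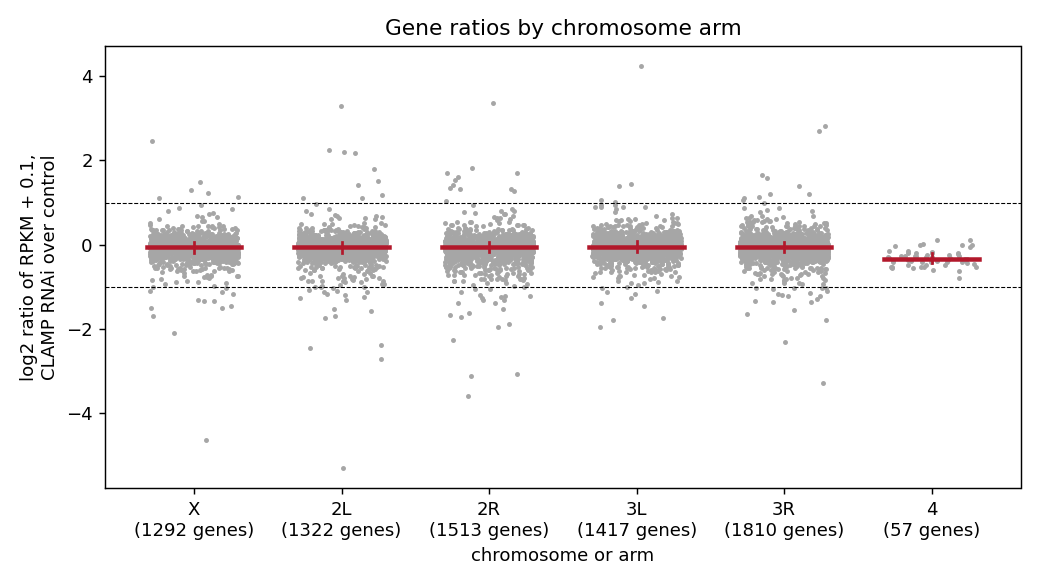
Log2 ratio of RPKM plus 0.1, CLAMP RNAi over control (y), of single genes (grey points, spread sideways at random) by chromosome or arm, with the number of genes. Red horizontal bars, medians; red vertical bars, middle 50%; dashed lines, 2-fold. The 5 large arms share a median near −0.05 and chromosome 4 lies at −0.34.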

How the data were processed

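The labels describe total RNA made into libraries with Illumina's TruSeq mRNA protocol. The submitters' processing notes list Bowtie and dm3, with no version, counter, annotation release or strand setting. The authors deposited, for each transcript, an RPKM, a read count, a length and a library total, and each RPKM was checked to be the count over length and total. Reads in shared exons are counted for each transcript. Whether the totals count reads or mates is not given. The deposited read counts allowed no count model, with 1 library per group.

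Symbols, arms and gene order came from RefSeq's Release 6 plus ISO1 MT table, where 13783 genes matched a locus tag, 749 a synonym and 607 nothing. No coordinates or sequences are given. The named genes are the 18 lowest and 18 highest log2 ratios for a mean RPKM from 5 up, the 5 lowest and 5 highest at 1 to 5, up to 6 members of each list past 1.5-fold (or the 1 furthest), and the 8 genes with the largest transcript difference. Others were chosen after their values were seen. A further gene list is not reported here. Members and lists were chosen with earlier results of these data known. Computations used Python 3.11.15, pandas 2.3.3 and scipy 1.17.1. Neither group has a replicate here. Alternatives changed 1 choice at a time, as given in the closing section.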

Additional observations from a re-analysis of the deposited data

How the results depend on the processing

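No paired analysis was possible because each mRNA group has 1 library. Counts past a fold limit moved most with the filter on level. Dropping it gave 249 genes 2-fold below control and 135 above (712 and 375 at 1.5-fold). At a mean RPKM of at least 5 there were 32 and 21 (131 and 51). With a pseudocount of 1 the 2-fold lower genes numbered 43, and the 1.5-fold genes 183 lower and 74 higher. Transcripts of at least 1 kb left 52 genes 2-fold lower and 179 1.5-fold lower, with fewer genes described. The median log2 ratio of all genes was −0.047 without the filter, −0.048 at a mean RPKM of at least 5, −0.022 with upper-quartile scaling and 0 by construction when centred. With the mean of the control and MSL2 RNAi libraries as the reference, the X median minus that of the major arms was 0.16 in place of 0.00. A 2-fold rule left 1 gene with transcripts that differed. The pseudocount of 0.01, the filter over 2 libraries and the longest transcript kept all these counts within 1.5 times. Of 85 named genes, ninaD changed sign, at −0.34 against the mean of both reference libraries. With that reference 12 of 58 named genes at 2-fold were inside it, among them Hml, Nrg, Prx6b, Prx6c and lncRNA:CR40469, whose MSL2 RNAi level lay on the side of CLAMP RNAi. A pseudocount of 1 left 7 inside it. The planned search of promoters for GA repeats was not run, since no sequence was used here. Depth limits the short noncoding RNAs most, at a median of 20 control reads for small nucleolar RNAs.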

Other observations

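Small nucleolar and Cajal body RNAs, grouped after their values were seen, lay on both sides of control. Of 217 such genes in the files 68 passed the level filter. Their median log2 ratio to control was −0.31 with CLAMP RNAi and −0.08 with MSL2 RNAi. Of the 68, 16 were 2-fold lower and 3 higher, beside 1.16% and 0.588% of all genes, and beside 5.25% and 2.19% of genes with a mean RPKM of 1 to 5. The counting interval of the read ratio reached 1 for 6 of the 16 and lay clear of it for 10, though the 16 were chosen by the size of their ratio. The 68 had 3 to 166 reads in control, with a median of 20, on transcripts of 49 to 316 bases.

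Some genes under the level filter were past 2-fold as well. Of 472 genes with a mean RPKM below 1 and at least 100 reads in the control and CLAMP RNAi libraries together, 14 were 2-fold lower and 11 higher. These counts stand beside 1.16% and 0.588% of all described genes, and 5.25% and 2.19% of those with a mean RPKM of 1 to 5. These limits were chosen after the data were seen. The homeobox gene cad (caudal) had 16 (control), 368 (CLAMP RNAi) and 21 (MSL2 RNAi) reads, a read ratio of 22.9 (exact 95% counting interval 13.9 to 40.5). The maltase genes Mal-A7 and Mal-A5, members of a family of close copies, had 15, 316 and 5 reads and 40, 145 and 23. The Wnt inhibitor gene nkd had 72, 253 and 41 reads, and pirk, an inhibitor of the immune deficiency pathway, 30, 115 and 38. Gbp2 had 33, 86 and 21 reads, beside the higher level of its relative Gbp1 given above. The limit on reads was met mostly through the CLAMP RNAi library by cad, Mal-A7, Mal-A5, nkd, pirk and Gbp2. Their high count in it is partly set by that choice. Lower in it were the innexin gene ogre (191, 29 and 61 reads) and Ugt303A1 (201, 37 and 125).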
